A study of Mus musculus with 10 samples.

Results

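Spock3 and its SPARC-related relatives were followed in the cochlea of newborn mice. The family, named after SPARC (osteonectin), consists of 8 genes chosen by symbol, namely Spock1, Spock2, Spock3, Sparc, Sparcl1, Smoc1, Smoc2 and Fstl1, out of 54532 genes in the count table. Spock3 was selected on the readout itself, as the gene with the smallest p-value among those lower in the libraries labelled as Esrrg conditional knockout. Its genotype difference is therefore described here without being used as a test. The other 7 genes were taken for their kinship to it, and the question was whether they moved with Spock3 or against it. All 8 genes were abundant enough to be tested.

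The study compared RNA from the soft tissue of the cochlea of female mice on postnatal day 1, with both ears of an animal combined in a library and 5 libraries per genotype. The control animals were Esrrgfl/fl, with both copies of Esrrg (estrogen-related receptor gamma, a nuclear receptor) flanked by loxP sites. The second group was Esrrgfl/fl;Sox10-Cre, which adds a Cre recombinase driven by Sox10 regulatory sequence; its libraries are called here the cKO-labelled libraries. Sox10 is active in the otic epithelium, in Schwann cells and satellite glia, and in melanocytes. The floxed alleles were shared by both groups and Cre was present in the second group alone, so an effect of Cre itself and an effect of the deletion cannot be told apart.

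The SPARC-related proteins are secreted and share a follistatin-like domain and an extracellular domain of the calcium-binding type. They are matricellular: they sit in the matrix and alter how cells, collagen, proteases and growth factors meet, rather than bearing load. The testicans (Spock1, Spock2 and Spock3) are proteoglycans known mainly from the nervous system. Testican-1 and testican-3 are known to hold back the membrane-type metalloproteases that activate the gelatinase Mmp2, and testican-2 is known to lift that block. SPARC binds collagen and guides fibril assembly, hevin (Sparcl1) is known for promoting excitatory synapses, SMOC1 and SMOC2 belong to basement membranes and act on BMP signalling, and follistatin-like 1 (Fstl1) binds BMP ligands.

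Each library held about 33487100 to 41779800 counts in all. Esrrg, the targeted gene, was higher where the label predicts its loss: control libraries held 1725 to 2414 counts and the cKO-labelled libraries 2768 to 3632 counts. A count over the whole gene cannot tell an intact transcript from one that lacks an exon, and each direction below rests on the label. Control 2 scored -29.0 on the first principal component where the other controls scored -4.11 to 5.70, so values without it are given where a family result rests on it. All 111 marker genes of 13 cell types of the cochlea and its surroundings had counts in at least 1 library. Counts of called genes are read against a background: of 17937 genes tested with edgeR's quasi-likelihood test, 0.619% had a Benjamini-Hochberg adjusted p under 0.05 (called genes), with 0.546% lower and 0.0725% higher in the cKO-labelled libraries, 9.65% had an unadjusted p under 0.05, and 2.84% did not overlap between the groups in CPM (counts scaled to library size).

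Spock3 (ENSMUSG00000054162, GRCm38 chromosome 8, 62951009 to 63357103, plus strand) had the smallest p-value of the family, which follows from the way it was selected. The 5 control libraries held 237, 327, 285, 302 and 267 CPM in replicate order. The 5 cKO-labelled libraries held 90.5, 115, 124, 117 and 83.6 CPM. Every cKO-labelled library lay below every control library, and the highest of them was at 124 CPM where the lowest control was at 237 CPM.

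The Spock3 means were 283 ± 34.0 CPM in controls and 106 ± 17.7 CPM in the cKO-labelled libraries (SD, n = 5 each). The level in the cKO-labelled libraries was 37.4% of control, a 2.67-fold difference, with a log2 fold change of -1.42 (SE 0.120) and a 95% interval of -1.68 to -1.16. The values by which Spock3 was selected were its edgeR p of 1.22e-08 and adjusted p of 0.000218. The next lower genes in that ranking were Arpp21 and Stac2, both with an adjusted p of 0.000246. The log2 fold change stayed between -1.48 and -1.34 over 18 alternative fits, and was -1.37 without control 2. The interval and these fits take no account of the selection of Spock3 from the same libraries. The smallest count behind these values was 3020 in a library. No exon of Spock3 overlaps an exon of another annotated gene.

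**Figure D1:**
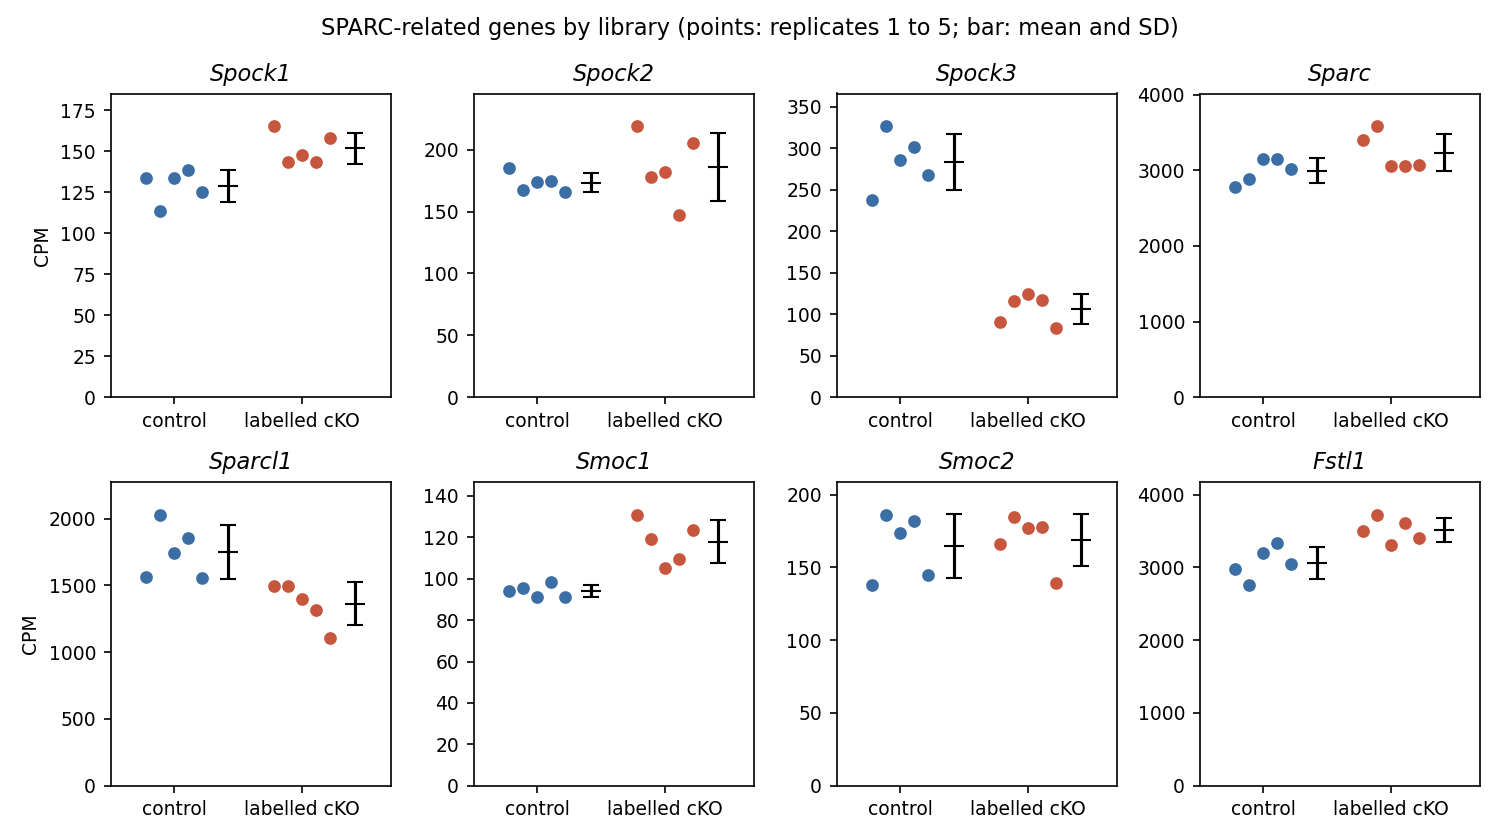
CPM of the 8 SPARC-related genes in each library (points; replicates 1 to 5 from left to right; blue, control; red, labelled cKO), with the mean and SD of each group of 5 beside them; each vertical axis starts at 0. Spock3 separates the groups widely (237 to 327 against 83.6 to 124 CPM), Sparcl1 is lower and Spock1 and Smoc1 are higher without overlap, and the other 4 genes overlap between the groups.

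Among the 7 relatives, none was lower by a comparable size. In either direction edgeR called 0 of the 7 (0.619% of all tested genes), and 4 of the 7 had an unadjusted p under 0.05. DESeq2 called 1 of them (Smoc1, higher) and limma-voom called 2 (Smoc1, higher, and Sparcl1, lower). Over all 17937 tested genes, DESeq2 called 253 lower and 54 higher, and limma-voom 290 and 50, against 98 and 13 with edgeR. For the 7 relatives, the log2 fold change was above 0 for 6 and below 0 for 1, with a median of 0.11 against -0.01 over all tested genes. No overlap between the groups was found for 3 of the 7, 2 of them higher and 1 lower. These 7 genes were chosen with earlier results known, so the shares of 4 in 7 and 3 in 7 are set beside the background of 9.65% and 2.84% as a description.

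Spock1 (ENSMUSG00000056222, chromosome 13, 57421195 to 57908332, minus strand), which encodes testican-1, was higher in the cKO-labelled libraries by a small margin that did not pass the test. Control libraries held 133, 113, 133, 138 and 125 CPM, and the cKO-labelled libraries held 165, 144, 148, 143 and 158 CPM. The groups did not overlap, but the nearest libraries were 138 and 143 CPM. On the log2 scale the difference was 0.24 (SE 0.0757, 95% interval 0.07 to 0.40; edgeR adjusted p 0.292). It was 0.18 without control 2, the lowest control, with an edgeR adjusted p of 0.246.

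Spock2 (ENSMUSG00000058297, chromosome 10, 60106219 to 60135198, plus strand), which encodes testican-2, overlapped between the groups. It held 185, 167, 174, 174 and 166 CPM in controls and 219, 178, 182, 147 and 205 CPM in the cKO-labelled libraries. The controls lay close together, with a coefficient of variation of 4.51%, while the cKO-labelled libraries spread by 14.7% and reached both above and below all controls. Its difference was 0.10 on the log2 scale (SE 0.0963; edgeR adjusted p 0.745), with a 95% interval of -0.10 to 0.31, that is 0.932 to 1.24 times control.

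Levels of the 3 testican genes were compared with each other on the FPKM scale, which divides by gene length. In controls Spock3 was the highest at 46.5 ± 5.36 FPKM, followed by Spock2 at 31.1 ± 1.58 and Spock1 at 15.3 ± 1.27 (SD, n = 5), and the ranges of neighbours in that order did not overlap. In the cKO-labelled libraries the order was Spock2 at 33.5 ± 4.87, Spock1 at 18.0 ± 1.11 and Spock3 at 17.4 ± 2.97 FPKM. There the last 2 overlapped, with Spock1 above Spock3 in 2 of 5 libraries. Spock3 was thus first among the testicans by mean in controls and last in the other group.

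The level of the 3 genes summed was 88.1 to 97.5 FPKM in controls and 62.9 to 74.1 FPKM in the cKO-labelled libraries, without overlap. Spock3 made up 44.2% to 55.2% of that sum in controls and 19.8% to 30.6% in the cKO-labelled libraries. Spock1 and Spock2 together held 46.3 ± 2.64 FPKM in controls and 51.5 ± 5.90 FPKM in the cKO-labelled libraries (SD, n = 5 each), with overlapping ranges. The mean difference was -29.0 FPKM for Spock3 and 5.16 FPKM for Spock1 plus Spock2. The summed testican level remained below control in all 5 cKO-labelled libraries. No p is given for these sums, since Spock3 was picked for its difference and the members were chosen with results known.

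**Figure D2:**
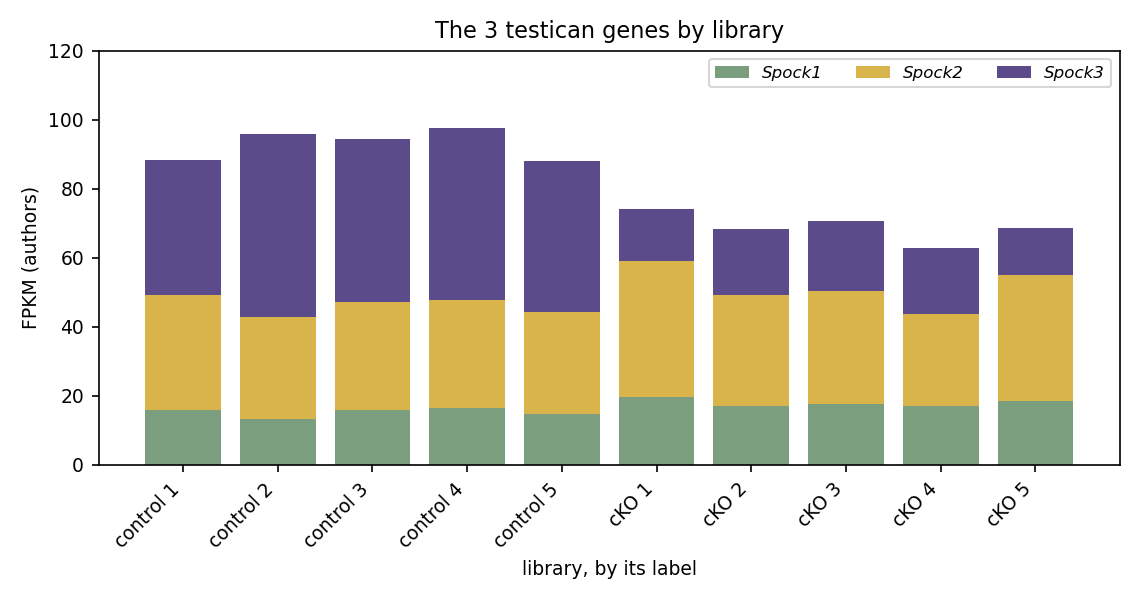
Stacked FPKM (the authors' values) of Spock1, Spock2 and Spock3 in each of the 10 libraries, by label; the vertical axis starts at 0. The Spock3 layer shrinks from 39.1 to 52.9 FPKM in controls to 13.6 to 20.4 FPKM in the cKO-labelled libraries, while the layers below it sum to 42.9 to 49.3 and 43.6 to 59.1 FPKM.

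Within the group labelled cKO the testicans did not vary in parallel. Libraries cKO 1 and cKO 5 held the lowest Spock3 values, at 90.5 and 83.6 CPM. The same 2 libraries held the highest values of Spock1 (165 and 158 CPM), of Spock2 (219 and 205 CPM) and of Smoc1 (131 and 124 CPM). This order was noticed after the values were seen, and with 5 libraries in the group it is given as a description.

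Sparc (ENSMUSG00000018593, chromosome 11, 55394500 to 55423183, minus strand), the founding member, was the most abundant gene of the family, above 99.9% of tested genes in mean FPKM. It held 2776, 2885, 3142, 3154 and 3011 CPM in controls and 3397, 3583, 3056, 3056 and 3062 CPM in the cKO-labelled libraries. The ranges overlapped, with cKO 1 and cKO 2 above all controls and the other 3 within the control range. Sparc differed by 0.11 on the log2 scale (SE 0.0850, 95% interval -0.07 to 0.29; edgeR adjusted p 0.689).

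Sparcl1 (ENSMUSG00000029309, chromosome 5, 104079111 to 104113733, minus strand), which encodes hevin, was the other member with a value below control. Control libraries held 1563, 2030, 1746, 1858 and 1557 CPM, and the cKO-labelled libraries held 1499, 1496, 1395, 1316 and 1107 CPM. The groups did not overlap, yet controls 1 and 5 lay close above cKO 1 and cKO 2. The level was 77.8% of control, or -0.36 on the log2 scale (SE 0.107, 95% interval -0.59 to -0.13), with an unadjusted p of 0.00454 and an adjusted p of 0.230 in edgeR. limma-voom gave -0.36 and an adjusted p of 0.0331, DESeq2 an adjusted p of 0.0604. Without control 2, the highest control, the log2 fold change was -0.31, and without cKO 5, the lowest library, it was -0.30, with edgeR adjusted p of 0.141 and 0.522.

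Sparc, Fstl1 and Sparcl1 held most of the RNA of the family on the FPKM scale. In controls Sparc stood at 784 ± 45.1, Fstl1 at 618 ± 47.4 and Sparcl1 at 591 ± 65.3 FPKM (SD, n = 5). Fstl1 and Sparcl1 overlapped there, with Fstl1 above Sparcl1 in 4 of 5 libraries. In the cKO-labelled libraries, Fstl1 stood at 711 ± 35.3 and Sparcl1 at 462 ± 56.8 FPKM, and their ranges no longer overlapped. The level of all 8 genes summed was 2136 ± 116 FPKM in controls and 2147 ± 146 FPKM in the cKO-labelled libraries, of which Spock3 made up 1.95% to 2.49% and 0.664% to 0.983%.

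Smoc1 (ENSMUSG00000021136, chromosome 12, 81026808 to 81186414, plus strand), which encodes a basement membrane protein that acts on BMP signalling, came closest to a call among the relatives, in the direction opposite to Spock3. Control libraries held 94.3, 95.4, 91.2, 98.2 and 91.4 CPM, the tightest group of the family with a coefficient of variation of 3.12%. The cKO-labelled libraries held 131, 119, 105, 110 and 124 CPM, all above the highest control. Smoc1 was thus 1.25-fold higher, 0.32 on the log2 scale (SE 0.0736, 95% interval 0.17 to 0.48; edgeR adjusted p 0.0759). The call depended on the method and on 1 library: the adjusted p was 0.00360 with DESeq2, 0.0220 with limma-voom and 0.0318 in edgeR without control 2, and it was 0.239 without control 3 and likewise without cKO 5. Its size stayed between 0.28 and 0.36 on the log2 scale in all 18 alternative fits.

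Smoc2 (ENSMUSG00000023886, chromosome 17, 14279506 to 14404790, plus strand), the paralogue of Smoc1, overlapped almost completely between the groups. It held 138, 186, 173, 182 and 145 CPM in controls and 166, 185, 177, 178 and 139 CPM in the cKO-labelled libraries. The range of the controls was 138 to 186 CPM and that of the others 139 to 185 CPM. A difference of 0.04 on the log2 scale remained (SE 0.104, 95% interval -0.18 to 0.26; edgeR adjusted p 0.922), and the sign turned to -0.020 without control 1 and to -0.0053 without control 5. In FPKM, Smoc1 (26.7 ± 0.848) and Smoc2 (23.5 ± 3.10) overlapped in controls, while in the cKO-labelled libraries Smoc1 (33.5 ± 2.90) lay above Smoc2 (24.2 ± 2.67; SD, n = 5) without overlap.

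Fstl1 (ENSMUSG00000022816, chromosome 16, 37776873 to 37836514, plus strand) was higher on average in the cKO-labelled libraries, with overlap. Control libraries held 2975, 2764, 3203, 3333 and 3043 CPM, and the cKO-labelled libraries held 3505, 3728, 3312, 3606 and 3404 CPM. The lowest cKO-labelled library lay just below the highest control. The difference was 0.20 on the log2 scale (SE 0.0832, 95% interval 0.02 to 0.38), with an unadjusted p of 0.0331 and an adjusted p of 0.477 in edgeR. It was 0.15 without control 2.

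**Figure D3:**
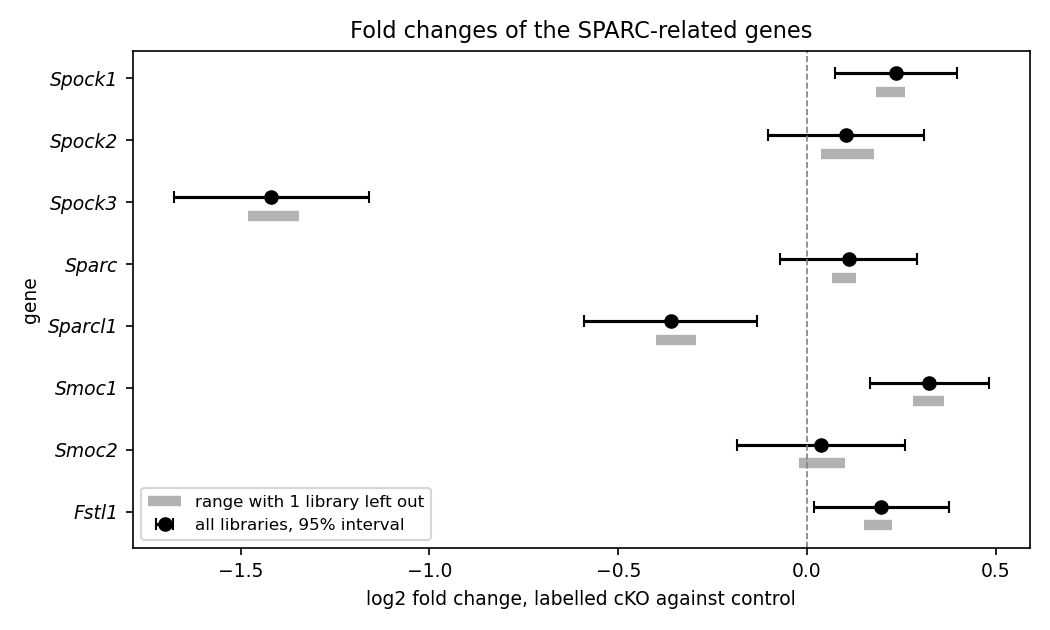
Log2 fold change of each SPARC-related gene (labelled cKO against control, 5 libraries each; point and 95% interval from edgeR) and, as grey bars, the range over the 10 fits with 1 library left out; the dashed line marks no change. Spock3 lies at -1.42 with a grey bar from -1.48 to -1.34, Sparcl1 at -0.36, and the other 6 genes between 0.04 and 0.32.

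Lists of cell type markers were set beside these values, because in a bulk sample fewer cells of a type and less RNA per cell cannot be told apart. Spiral ganglion neurons carry sound signals to the brain. Of 17 of their markers, edgeR called 4 lower, among them Calb2, Slc17a7 and Elavl4, and 0 higher. Over all tested genes, edgeR called 0.546% lower and 0.0725% higher, and 9.65% had an unadjusted p under 0.05. The median log2 fold change over the list was -0.24, with 12 genes below 0 and 5 above. An unadjusted p under 0.05 in edgeR was found for 9, of which Syt1 and Gata3 were higher (0.23 and 0.21 on the log2 scale). The summed level of the list was 392 to 457 FPKM in controls and 237 to 409 FPKM in the cKO-labelled libraries. Library cKO 1 was at 409 FPKM, within the control range, with a Spock3 level of 14.9 FPKM. By mean, the largest terms of the sum in the cKO-labelled libraries were Tubb3, Nefm and Nefl, and Calb2 in cKO 1 was at 25.1 CPM where controls held 70.5 to 137 CPM. Of 5 tested markers of brain glia, edgeR called 3 lower and 0 higher, with a median log2 fold change of -1.61 over the list. An unadjusted p under 0.05 in edgeR was found for 4, of which Slc1a2 was higher (0.36 on the log2 scale). Olig1, Olig2 and Aqp4 were at 14.9%, 24.4% and 32.7% of control. The summed level of the list of 7 was 12.1 to 15.8 FPKM in controls and 9.92 to 14.2 FPKM in the cKO-labelled libraries; most of it was Slc1a2, at 8.04 ± 1.93 and 10.3 ± 1.51 FPKM (SD, n = 5 each). The part of neurons and of brain glia in the Spock3 difference was not tested.

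Hevin is known from glia and from cells of the vessel wall. Of 11 markers of Schwann cells and satellite glia, 0 were called by edgeR and 5 had an unadjusted p under 0.05. Over all tested genes, these shares were 0.619% and 9.65%. DESeq2 and limma-voom, which each called more genes in all than edgeR did, each called 2 of the 11 lower, Fabp7 among them. Over the list the median was -0.35 on the log2 scale, and the summed level was 524 to 657 FPKM in controls and 387 to 551 FPKM in the cKO-labelled libraries. For 7 endothelial markers the median was 0.08, with summed levels of 120 to 149 and 132 to 136 FPKM, and for 7 markers of pericytes and smooth muscle it was 0.03. These 2 lists had 0 calls by edgeR, DESeq2 and limma-voom, and 1 and 0 genes at an unadjusted p under 0.05. Their part in the Sparcl1 value was not tested. Smoc1, Sparc and Fstl1 are known from mesenchyme and skeletal tissue: 7 markers of periotic mesenchyme and fibrocytes had a median of 0.13 and 8 tested markers of cartilage and bone one of -0.10, with 0 called in either list by edgeR, 2 and 0 at an unadjusted p under 0.05, 1 (Otos, lower) and 0 called by DESeq2, and none called by limma-voom.

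Of the other lists, edgeR called 1 of 10 in the hair cell list (Pvalb, lower) and 1 of 9 in that of supporting and prosensory cells (Fgf10, lower). Over all tested genes, edgeR called 0.619%, and 9.65% had an unadjusted p under 0.05. In the second list limma-voom also called Prox1 lower. The medians of the 2 lists were -0.06 and -0.07. The summed hair cell level was 95.2 to 159 FPKM in controls and 56.5 to 90.8 FPKM in the cKO-labelled libraries, without overlap. The largest term of that sum was Pvalb, at 81.6 ± 24.1 and 35.4 ± 12.5 FPKM (SD, n = 5 each); the other 9 markers overlapped between the groups and had an unadjusted p above 0.05. The part of hair cells in the family's values was not tested. Medians were 0.20 for marginal cells, 0.13 for melanocytes and intermediate cells, 0.19 for macrophages and -0.76 for erythroid genes, the last with summed levels of 903 to 3726 FPKM in controls and 563 to 1644 FPKM in the cKO-labelled libraries. These 4 lists had 0 calls by edgeR, DESeq2 and limma-voom, and 0, 1, 1 and 1 genes at an unadjusted p under 0.05.

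Other genes of the matrix were examined to see whether the difference in Spock3 was part of a wider one. The lists hold 98 genes and were written with earlier results of these data known. Among 20 tested matricellular proteins outside the SPARC family, edgeR called 2 lower and 0 higher. Over all tested genes, it called 0.546% lower and 0.0725% higher, and 9.65% had an unadjusted p under 0.05. The median log2 fold change of the list was 0.07, with 6 genes below 0 and 14 above. An unadjusted p under 0.05 was found for 6 of the 20, and the 4 that were not called were higher: Thbs2, Thbs4, Ccn4 and Fbln2, with log2 fold changes of 0.27, 0.58, 0.18 and 0.23, of which Thbs4 did not overlap between the groups. The 2 called genes were Spp1 (osteopontin), an acidic phosphoprotein of bone and of some glia and neurons, and Tnr (tenascin-R), a glycoprotein of the neural matrix. Tgfbi, a collagen-binding matrix protein and the highest of the list in FPKM, was at 632 ± 44.8 and 633 ± 52.0 CPM (SD, n = 5 each).

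Spp1 (ENSMUSG00000029304, chromosome 5, 104435118 to 104441050) held 253, 377, 289, 272 and 408 CPM in controls and 134, 143, 153, 137 and 89.6 CPM in the cKO-labelled libraries. Every cKO-labelled library lay below every control library. Spp1 fell by 1.28 on the log2 scale (SE 0.158; edgeR adjusted p 0.00108), and the call held in each of the 18 alternative fits; its exons overlap those of Gm42793 on the same strand. Tnr is far less abundant, with 103 to 254 counts in controls and 34 to 101 in the cKO-labelled libraries. Its means were 4.88 ± 1.75 and 1.74 ± 0.651 CPM (SD, n = 5 each), a difference of -1.48 on the log2 scale (SE 0.289; edgeR adjusted p 0.0311). Leaving out 1 library at a time ended the call of Tnr in 8 of 10 fits, all but those without control 2 or cKO 3, with the highest adjusted p, 0.115, without control 3, and its exons overlap Gm38039, which is transcribed the other way.

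The partners through which the family is known to act showed 0 calls by edgeR, where 0.619% of all tested genes were called. At that share lists of this size may well hold none, so 0 calls does not show that the partners were unchanged. Over all tested genes, 9.65% had an unadjusted p under 0.05 in edgeR. The list of 13 metalloproteases and inhibitors, which holds the targets of the testicans, had a median of 0.02 on the log2 scale and 2 genes at an unadjusted p under 0.05, with 0 calls by DESeq2 and limma-voom. Mmp2, the gelatinase at the end of the testican-sensitive cascade, was at 1100 ± 49.4 and 1192 ± 76.6 CPM, and its inhibitor Timp2 at 809 ± 96.6 and 969 ± 91.0 CPM (SD, n = 5 each), with log2 fold changes of 0.12 and 0.26 and edgeR adjusted p of 0.648 and 0.430. For 15 collagen ligands and receptors of SPARC proteins the median was 0.11, with 2 genes at an unadjusted p under 0.05 and 0 calls by the other tools; Col1a2 and Col3a1, the latter with exons shared with Gm47302, had log2 fold changes of 0.12 and -0.04. For 18 tested BMP ligands, receptors and antagonists, the pathway on which SMOC proteins and Fstl1 act, the median was 0.11, with 2 genes at an unadjusted p under 0.05 and 0 calls by the other tools. The BMP target genes Id1 and Id3 had log2 fold changes of 0.11 and 0.01.

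Proteoglycans, the class to which testicans belong, were also without calls by edgeR. With 0.619% of all tested genes called, that says little for lists of this size. Over all tested genes, 9.65% had an unadjusted p under 0.05 in edgeR. DESeq2 and limma-voom each called more genes in all than edgeR did. The median log2 fold change was 0.14 for 14 core proteins of heparan sulfate proteoglycans, with 2 genes at an unadjusted p under 0.05 that DESeq2 called higher (Gpc4 and Gpc5) and limma-voom did not. Agrn (agrin) and Gpc3, the most abundant of the list, had log2 fold changes of 0.15 and 0.03; that of Agrn was 0.042 without control 2 and 0.038 with limma-voom. For 10 core proteins of chondroitin sulfate proteoglycans the median was -0.04, with 3 genes at an unadjusted p under 0.05, of which DESeq2 and limma-voom called Ncan lower. Epyc and Dcn, the most abundant of that list, had log2 fold changes of 0.11 and -0.03; exons of Epyc overlap those of Gm10754. Among 8 relatives that share the follistatin-like domain the median was 0.14, with 2 genes at an unadjusted p under 0.05, and Tmeff2 was called higher by DESeq2 and limma-voom and in edgeR without control 2. Igfbp7, the most abundant of these, had a log2 fold change of -0.05 and shares exons with Polr2b on the other strand.

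**Figure D4:**
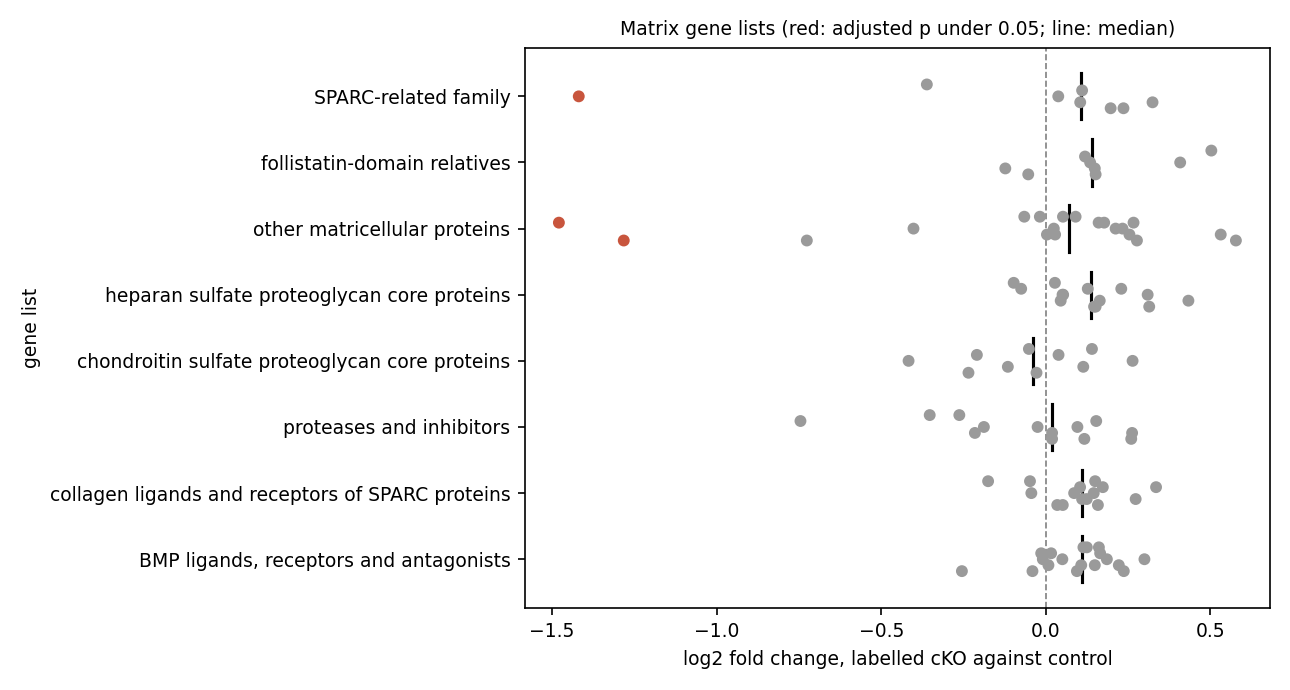
Log2 fold change (labelled cKO against control, 5 libraries each) of each tested gene of the SPARC-related family and of 7 lists of matrix genes; red points have an edgeR adjusted p under 0.05, black lines are list medians and points are offset vertically for legibility. The red points are Spock3 in the family and Tnr and Spp1 among the other matricellular proteins; the list medians lie between -0.04 and 0.14.

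The genes whose pattern over the 10 libraries was most like that of Spock3 were sought among 13610 other genes with a mean of at least 1 FPKM, by Pearson correlation of log2 CPM. They were Calb2 (calretinin, a calcium-binding protein of neurons) at 0.985, Serpini1 (neuroserpin, a protease inhibitor of neurons) at 0.976, and Sertm1 at 0.973, followed by Stac2 and Olig1, both at 0.963. All 5 genes were lower in every cKO-labelled library than in every control, which raises these correlations. With the genotype means taken out, the correlation of the deviations was 0.935 for Calb2, 0.678 for Serpini1, 0.600 for Sertm1, 0.498 for Stac2 and 0.521 for Olig1. These deviations also enter the correlation by which the genes were chosen. For Calb2, the highest control was control 2 (137 CPM), the lowest control 1 (70.5 CPM), and the lowest cKO-labelled library cKO 5 (18.4 CPM), as for Spock3. Exons of Olig1 overlap those of Gm15966.

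The surroundings of Spock3 on chromosome 8 are poor in expressed genes. Of 25 other annotated genes within 1 Mb, 2 were tested, and neither was called by edgeR, DESeq2 or limma-voom or had an unadjusted p under 0.05. Ddx60, 913 kb before it, was at 1.87 ± 0.457 and 1.95 ± 0.315 CPM, and Tll1, a metalloprotease gene 658 kb after it, at 6.98 ± 0.798 and 8.42 ± 1.17 CPM (SD, n = 5 each).

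Since Esrrg encodes a DNA-binding receptor, promoter windows of the family were searched for the element known for estrogen-related receptors. RefSeq windows (GRCm38.p6, 250 bases before to 50 after an annotated start) were at hand for 5 of the 8 genes, with 6 windows in all, of which 2 belong to Spock3. The 2 windows of Spock3 overlap each other, and the window of Sparc lies within the gene body given above, away from its ends. On both strands, none of the 6 held TCAAGGTCA, its shorter form AAGGTCA or the core AGGTCA, which lies within both; 0.423%, 4.72% and 16.3% of 32851 windows of that length do. At these shares a set of 6 windows without them is not unusual, and the absence of these letters says nothing of sites elsewhere in the genes. Base composition differed among the testicans: the Spock1 window held 29 CpG dinucleotides, that of Spock2 10, and those of Spock3 4 and 7, where the median of all windows was 7.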

How the data were processed

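The authors deposited whole-number counts per Ensembl gene and FPKM values (fragments scaled to gene length and library size) for 10 libraries. STAR 2.5, HTSeq 0.61, DESeq2 and the build mm10 are named, without roles, in the submitters' processing notes; the gene annotation and strandedness are not given in the sources used here. Lengths implied by the FPKM values matched GENCODE M21 (GRCm38) within 0.1% for 95.3% of 13928 genes and for all 8 family members, so symbols, positions and overlaps were taken from it. Columns were matched through the library names in the labels.

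Genes passing filterByExpr (minimum 10 counts; 17937 genes) were scaled by TMM and compared by genotype with edgeR 4.0.16 (quasi-likelihood, robust). P-values were adjusted by Benjamini-Hochberg over all tested genes, and SE and 95% intervals were derived from the F statistic. The scripts were tested on simulated data. Alternatives were DESeq2 1.42.0 and its size factors, limma 3.58.1 (voom with quality weights; log2(FPKM + 1) and log2(FPKM + 0.1)), other filters, the replicate number as a block, and leaving out each library. The members and lists were chosen with earlier results of these data known. Named genes were the members, Esrrg and Sox10; called genes and the 2 highest in FPKM of each matrix list; tested genes within 1 Mb of Spock3; and the 5 genes most like it. Sox10 was at 205 ± 25.8 and 226 ± 17.5 CPM. Protein sequences were not used here. Some marker genes are not reported here by name.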

Additional observations from a re-analysis of the deposited data

Results flagged for a closer look

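A library was set apart when its distance to the nearest library of its group, divided by the range of the group of 5, exceeded Dixon's critical value of 0.71. Of 76 groups examined (38 measures), 8 met this where chance gives about 5%, or 3.8; several of these share control 2, and no family member was among them.

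Control 2 was set apart on 5 measures. It stood at -29.0 on the first principal component (other controls -4.11 to 5.70), and its deviations correlated with log gene length at -0.349 across genes (others 0.115 to 0.168). It was high for Gpc3, at 418 CPM (others 328 to 344), and for Id3, at 375 CPM (others 252 to 276), and low for Timp2, at 640 CPM (others 827 to 874). Control 2 was also the highest control for Spock3, Sparcl1 and Smoc2 and the lowest for Spock1 and Fstl1; what sets it apart was not tested.

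In the other group, cKO 5 stood at 17.9 on the first component (others -0.690 to 1.77), cKO 2 held 1327 CPM of Mmp2 (others 1141 to 1176) and cKO 4 held 6.41 CPM of Tll1 (others 8.55 to 9.23).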

How the results depend on the processing

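Spock3 was called in all 18 alternative fits, with adjusted p of at most 0.00162 (without control 3). These fits reuse the libraries by which Spock3 was picked, so they describe the processing and are no independent test of Spock3. The 98 lower and 13 higher genes became 253 and 54 with DESeq2 and 290 and 50 with limma-voom, and ranged from 44 to 178 and from 8 to 19 with 1 library left out. The lower count was 178 without control 2, and 51, 44, 59 and 60 without controls 1, 3, 4 and 5, and 53, 55 and 47 without cKO 2, 4 and 5. Among the 7 relatives, DESeq2 called 1 higher, limma-voom 1 lower and 1 higher, and fits with 1 library left out 0 to 1 higher. With the replicate block there were 83 lower and 18 higher calls, none of them a relative of Spock3, and the log2 fold change of Spock3 was -1.43. The deviations of same-numbered libraries correlated at 0.0211 to 0.179, all positive, and 6 of 10 libraries correlated best with their own number. The main fit did not take the numbers as pairs. A factor shared by libraries of the same number was not tested. Values near 0 changed sign. With 1 library left out, the log2 fold change ran from -0.020 to 0.10 for Smoc2, -0.070 to 0.039 for Dcn, -0.039 to 0.15 for Ddx60, -0.025 to 0.082 for Gpc3, -0.054 to 0.11 for Id3, -0.11 to 0.027 for Igfbp7 and -0.045 to 0.032 for Tgfbi. It was 0.026 for Dcn and -0.0065 for Tgfbi with limma-voom, and -0.00045 for Tgfbi with at least 1 CPM in 5 libraries. The call of Esrrg was lost with the replicate block, in both FPKM fits and in 7 of 10 leave-one-out fits, and that of Tnr in both FPKM fits. The list counts without control 2 were added after the data were seen and were made for the 7 matrix lists, the neurons and the brain glia. They differed by 1 call, Tmeff2, and the medians of the heparan sulfate and collagen lists were 0.06 and 0.03. Those of the neurons and the brain glia were -0.30 and -1.08, against -0.24 and -1.61 with all libraries. The causes were not tested. The relatives held at least 3145 counts in every library.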

Other observations

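Spp1, called lower among the other matricellular genes, lies beside a family member: it starts 321 kb from Sparcl1 on chromosome 5, in a stretch that also holds the bone matrix genes Dmp1 and Ibsp. Of 20 tested genes within 1 Mb of Sparcl1, 1 was called by edgeR (Spp1) and 6 had an unadjusted p under 0.05, where 9.65% of all tested genes do. Their directions were mixed. Dmp1, Mapk10 and the noncoding Gm26703, which begins inside the Sparcl1 gene body, had log2 fold changes of -0.45, -0.41 and -0.70, and Aff1 and Pkd2 had 0.35 and 0.23, with edgeR adjusted p between 0.330 and 0.498. Ibsp went from a mean of 119 to 67.0 CPM with a wide error (log2 fold change -0.83, SE 0.648). Around the other 7 members, 0 genes within 1 Mb were called by edgeR, with 0 to 5 at an unadjusted p under 0.05 per member. This neighbourhood was looked at after the values of Spp1 and Sparcl1 were seen.

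Smoc2, for which no difference between the genotypes passed the test, put the 5 controls in the same order as Spock3, from control 1 as the lowest over 5, 3 and 4 to control 2 as the highest. In the cKO-labelled libraries, cKO 5 and cKO 1 were the lowest for both genes. Calb2 showed the same order of controls and the same lowest cKO-labelled libraries, so the pattern is not particular to Smoc2. It was noticed after the values were seen, and control 2, at its top, was set apart on other measures.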
